A study of Mus musculus with 9 samples.

Results

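The nuclear genes of the mitochondrial respiratory chain were examined on all arrays of the study. Members were the probes whose gene symbol begins with NDUFA, NDUFB, NDUFC, NDUFS, NDUFV, SDHA, SDHB, SDHC, SDHD, UQCR, COX4I, COX5, COX6, COX7, COX8 or ATP5. The rule used names alone and no measured value. It found 89 of the 26423 probes on the array, for 79 of the 17778 gene symbols. Complex I had 36 probes for 32 genes, complex II 4 for 4, complex III 6 for 6, complex IV 21 for 18 and complex V 12 for 11. The other 10 probes, for 8 genes, belong to factors that carry the same prefixes but are not subunits, such as Ndufaf2 and Sdhaf2. Ndufa4 and its relative Ndufa4l2 were placed with complex IV.

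The animals were female BALB/c mice, and their RNA was hybridised to 9 one-colour arrays, 3 in each of 3 groups. Mock mice had Vaseline cream on the shaved back for 7 days. The group called IMQ had imiquimod, an agonist of toll-like receptor 7 used to induce psoriasis-like inflammation, on the same site for the same time. The group called vanillin had imiquimod and 100 mg/kg of vanillin by mouth. One label field of the vanillin group writes "and/or" between the 2 agents, while the treatment field gives both. Nothing in the labels ties the arrays of a group to separate mice, so the spread behind each p-value is that between arrays and may be technical.

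The respiratory chain passes electrons from NADH, through complex I, or from succinate, through complex II, to ubiquinone, then through complex III and cytochrome c to complex IV, which reduces oxygen. Complexes I, III and IV pump protons across the inner mitochondrial membrane, and ATP synthase, here called complex V, uses that gradient to make ATP. Most subunits are encoded in the nucleus and joined to a few encoded by mitochondrial DNA, and several complex IV subunits exist as a widely used isoform and a form restricted to muscle, lung or testis.

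Members belonged to the brighter features of the array. Their median intensity percentile was 91.0, with a range from 15.3 to 99.7, and 5 members lay below the 25th percentile. The labels give skin as the tissue, but their extraction text speaks of muscle. The 13 probes for markers of epidermal keratinocytes had a median percentile of 99.2, and the 11 for skeletal muscle one of 98.0, so markers of both were bright. Median intensities of the arrays lay between 628.9 and 631.1. Precision is limited by having 3 arrays a group. No probe carried a mitochondrial DNA symbol (mt-), so subunits encoded there were not analysed here.

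Sequences before the transcription start were available for 66 of the 79 genes, as 71 promoters of the RefSeq annotation on GRCm38.p6, and the 250 bases before each start were searched on both strands. The core motif of nuclear respiratory factor 1, the regulator for which respiratory genes are known targets, was in 4 of the 71 promoters (5.63%) and in 0.782% of all 32851 promoters in the table. The 4 windows of 60 bases are shown because they hold every match to this motif among the members. The motif is in capitals, each window reads 5′ to 3′ in the direction of its gene, and the motif reads the same on both strands.
Ndufaf4, chr4:24897945-24898004, plus strand, motif from 113 to 104 bases before the start: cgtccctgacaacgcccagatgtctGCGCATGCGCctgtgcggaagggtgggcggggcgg
Atp5k, chr5:108434415-108434474, minus strand, motif from 50 to 41 bases before the start: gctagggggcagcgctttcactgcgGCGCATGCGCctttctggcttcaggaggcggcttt
Cox6a1, chr5:115349086-115349145, minus strand, motif from 162 to 153 bases before the start: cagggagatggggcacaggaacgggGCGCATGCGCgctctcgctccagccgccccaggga
Ndufa11, chr17:56717677-56717736, plus strand, motif from 60 to 51 bases before the start: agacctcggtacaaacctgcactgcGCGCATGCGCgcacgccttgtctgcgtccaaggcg

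Of the other motifs searched, the GABP motif CCGGAAGT was in 1.41% of the members' promoters (Uqcr11) and 2.88% of all promoters. The motif of estrogen-related receptors, TCAAGGTCA, was in 1.41% (Atp5g3) against 0.387%, and the YY1 motif AAGATGGCG was in 1.41% (Dmac2, the current name of Atp5sl) against 0.606%. The core hypoxia response motif ACGTG was in 18 promoters (25.4%), against 16.6% of all promoters. A match is a run of letters in this window and shows no binding. The calls of the 4 genes with the first motif are given with their complexes, and for Ndufaf4 with the factors that carry the same prefixes.

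The comparison of IMQ with mock asked how imiquimod treatment changed these transcripts. Respiratory chain genes did not move as a block. Of the 89 probes 20 were called higher (22.5%) and 27 lower (30.3%), where a call is an adjusted p under 0.05 in limma, and 42 were not called. Among all probes of the array 24% were called higher and 29.6% lower, 53.6% in all. The members' shares are thus near the background of this array. Their median log2 change was -0.02, against -0.04 for all probes. The 3 IMQ arrays lay entirely above the 3 mock arrays for 29 members and entirely below for 35, where the shares of all probes were 31.9% and 36.1%. In bulk RNA, fewer cells of a type and less RNA per cell cannot be told apart.

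The comparison of vanillin with IMQ asked what oral vanillin changed under imiquimod. More members were called higher than lower, 27 (30.3%) against 13 (14.6%), and 49 were not called. Over all probes 24.3% were called higher and 17% lower, 41.2% in all, so the same tilt was present on the whole array. The median log2 change was 0.06 for the members and 0.03 for all probes. Groups of arrays did not overlap upward for 39 members and downward for 24, with 32.8% and 25.7% of all probes as background. This count fell when single arrays were left out. With all arrays 40 members were called, but 16, 24 and 20 without IMQ array 1, 2 or 3, 25 without vanillin array 1 and 24 without vanillin array 2. The background fell too, to 26.2%, 32.2%, 24.9%, 30.5% and 31.2% of all probes in the same fits.

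Vanillin against mock gave the fewest calls of the 3 comparisons. Of the members 14 were called higher (15.7%), 10 lower (11.2%) and 65 neither, against 11.9% and 14.7% of all probes and 26.7% in all. The median log2 change was 0.06, against 0.01 for all probes. Groups did not overlap upward for 22 members and downward for 16, with backgrounds of 17.5% and 20.3%. With only these 2 groups in the fit, 14 members were called in place of 24, and 17.9% of all probes. Each pair of these comparisons shares the arrays of a group, so the values below are set side by side and agreement between comparisons is not counted as a result.

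**Figure D1:**
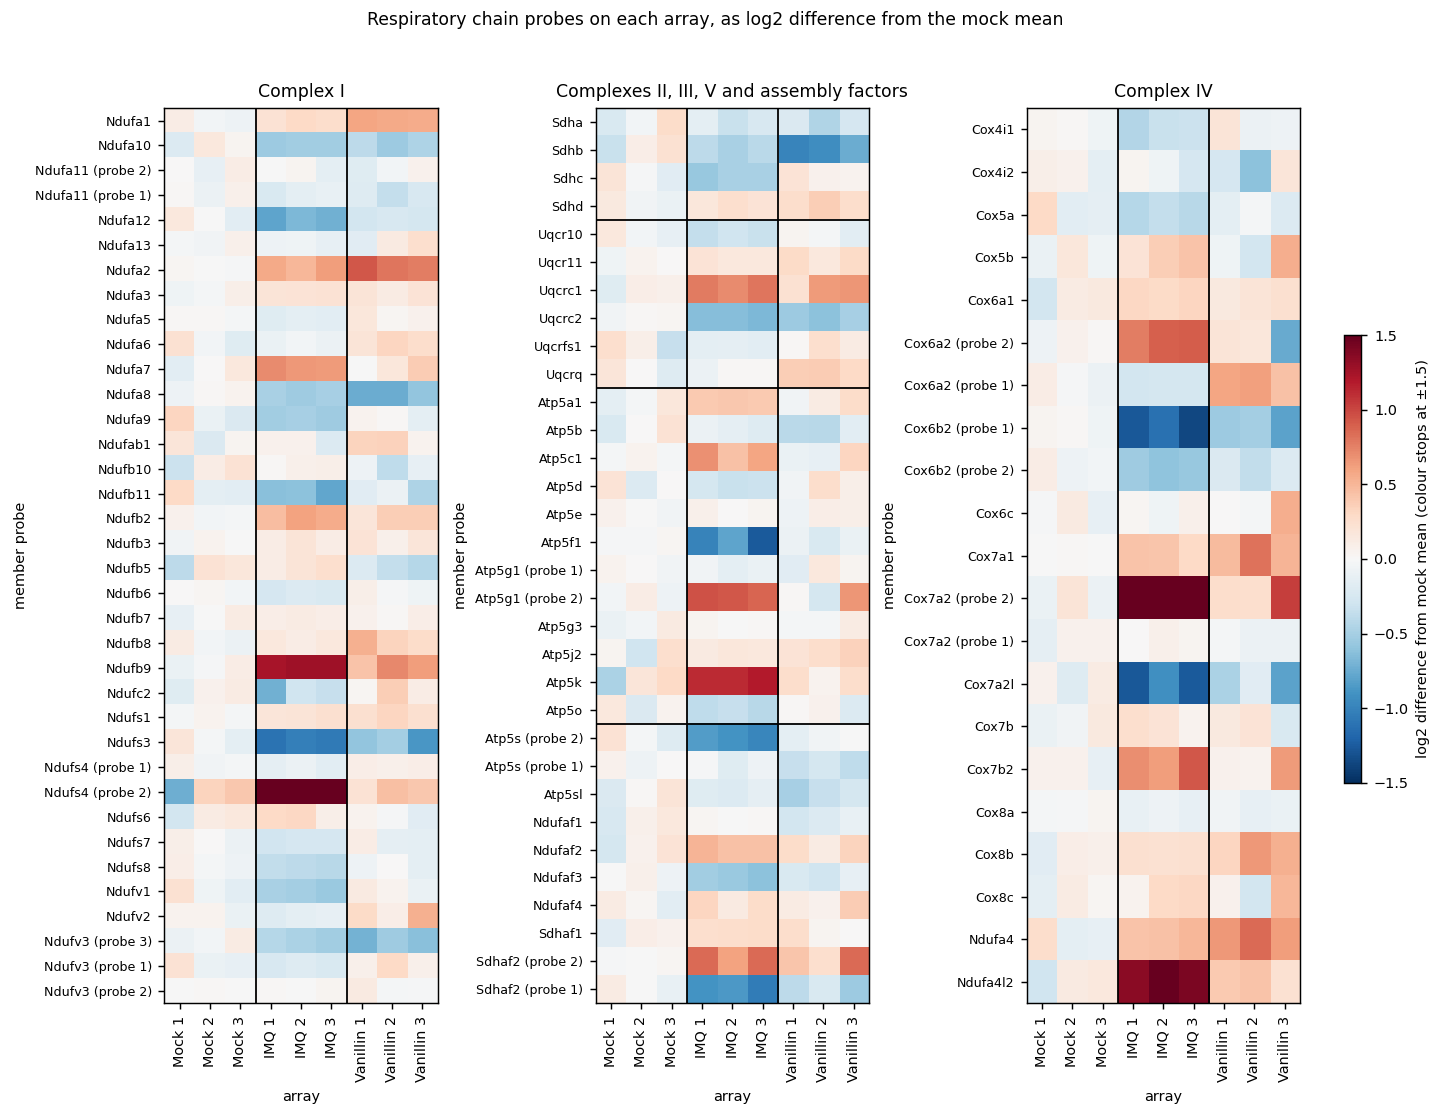
Log2 intensity of each of the 89 member probes (vertical axis) on each of the 9 arrays (horizontal axis) as the difference from the mean of the 3 mock arrays, with the colour scale ending at 1.5 log2 units in either direction. Probes of 1 gene are numbered from the brightest. Red and blue probes are mixed within every complex on the IMQ arrays, and the dimmer probes of Ndufs4 and Cox7a2 and the probe of Ndufa4l2 are among the deepest red ones there.

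**Figure D2:**
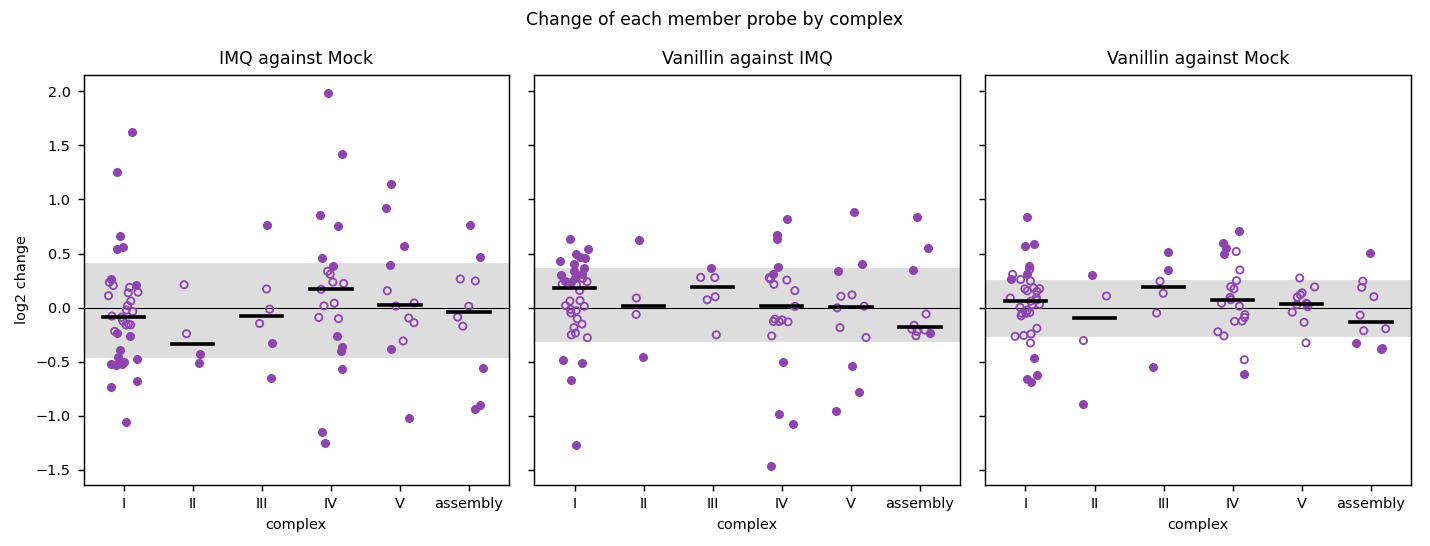
Log2 change of each member probe (points, filled where called) in the 3 comparisons, by complex, with the median of each complex as a bar. The grey band holds the middle 50% of all probes on the array. The medians of complexes I to V lie between -0.33 for complex II and 0.17 for complex IV in IMQ against mock.

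Complex I, the NADH dehydrogenase and the largest of the complexes, was called at 52.8% of its probes for IMQ against mock, near the 53.6% of the whole array, and its tilt to lower calls with IMQ and to higher calls with vanillin was also that of the array. Against mock, IMQ arrays gave 7 higher (19.4%), 12 lower (33.3%) and 17 not called of 36 probes, with a median log2 change of -0.08, where all probes had 24% and 29.6%. Vanillin against IMQ gave 14 higher (38.9%), 4 lower (11.1%) and 18 not called, with a median of 0.18, against 24.3% and 17% of all probes. Vanillin against mock gave 6 higher, 4 lower and 26 not called, with a median of 0.06, and 27.8% of its probes were called against 26.7% of all. Of the 36 probes 11 were called in no comparison. The 18 calls of vanillin against IMQ became 5, 9 and 7 without IMQ array 1, 2 or 3, 10 without vanillin array 1 and 9 without vanillin array 2. In these fits the share of all probes fell too, from 41.2% to 26.2%, 32.2%, 24.9%, 30.5% and 31.2%.

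By name class for IMQ against mock, the 14 NDUFA probes gave 3 higher (21.4%) and 4 lower (28.6%), near the 24% and 29.6% of all probes. The 9 NDUFB probes, for accessory subunits of the membrane arm, gave 2 higher and 2 lower (22.2% each). The 7 NDUFS probes, mostly subunits of the peripheral arm, gave 2 higher (28.6%) and 3 lower (42.9%). The 5 calls of this class fell to 3 without mock array 1 or 2, any IMQ array or vanillin array 2. Over all probes these fits called 43.7% to 53.4%. The 5 NDUFV probes, for the flavoprotein part that takes electrons from NADH, gave 0 higher and 2 lower (40%) in limma. At an unadjusted p under 0.05 they also gave 0 higher and 2 lower. Differences of these classes from the array were not tested.

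Among called complex I members, Ndufb9 had the smallest p for IMQ against mock. Ndufb9, an accessory subunit of the membrane arm, had log2 intensities of 12.93, 13.01 and 13.14 on the mock arrays, 14.26, 14.30 and 14.30 on the IMQ arrays and 13.46, 13.75 and 13.65 on the vanillin arrays. All IMQ arrays were above all others and the vanillin arrays lay between, with no overlap. The rise with IMQ was 1.26 ± 0.10 (SE), or 2.39-fold (adjusted p = 2.41e-05). Vanillin arrays were 0.63-fold the IMQ level (log2 change -0.67 ± 0.10, adjusted p = 0.00218) and 1.51-fold the mock level (adjusted p = 0.00263).

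Ndufs3 moved the other way. This core subunit of the peripheral arm, near the site of ubiquinone reduction, read 11.50, 11.29 and 11.17 in mock, 10.22, 10.30 and 10.27 in IMQ and 10.73, 10.81 and 10.45 in vanillin. The groups did not overlap, and the vanillin arrays again lay between. It fell to 0.479-fold with IMQ (log2 change -1.06 ± 0.12, adjusted p = 0.000158) and was 0.633-fold the mock level with vanillin (adjusted p = 0.00428). The difference of vanillin from IMQ, 0.40 ± 0.12 (adjusted p = 0.0298), was no longer called without IMQ array 1, 2 or 3 or vanillin array 1 or 2, with adjusted p from 0.0624 to 0.0947.

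Ndufa12, an accessory subunit of the peripheral arm and a relative of the assembly factor Ndufaf2, read 15.92, 15.77 and 15.62 in mock, 14.97, 15.10 and 15.05 in IMQ and 15.50, 15.53 and 15.51 in vanillin. Every IMQ array was below every other array. The fall was to 0.603-fold (-0.73 ± 0.10, adjusted p = 0.000293), and vanillin was 1.39-fold the IMQ level (adjusted p = 0.00585). The difference of vanillin from mock was -0.26 and was not called (adjusted p = 0.0795).

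Ndufa2, an accessory subunit beside the NADH-oxidising part, was higher in each step. It read 12.72, 12.69 and 12.67 in mock, 13.26, 13.19 and 13.32 in IMQ and 13.63, 13.50 and 13.47 in vanillin. No groups overlapped. It rose 1.48-fold with IMQ (adjusted p = 0.000545) and stood 1.79-fold above mock with vanillin (0.84 ± 0.08, adjusted p = 0.000135). The step from IMQ to vanillin was 0.27 ± 0.08 (adjusted p = 0.0279) and was lost without any one of the IMQ arrays or vanillin array 1 or 2 (adjusted p from 0.054 to 0.0998).

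The other 31 complex I probes, those not named by the rule for named members, changed by -0.68 to 0.67 log2 units with IMQ, with 4 called higher and 10 lower. Between vanillin and IMQ they changed by -0.51 to 0.63, with 11 higher and 2 lower, and between vanillin and mock by -0.69 to 0.57, with 4 higher and 3 lower. Over all probes the shares called higher and lower were 24% and 29.6%, 24.3% and 17%, and 11.9% and 14.7%, in the same order of comparisons. The complex I probes that changed by 1 log2 unit or more with IMQ were those of Ndufb9 and Ndufs3 and the dimmer of Ndufs4.

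Of the genes with the motif of nuclear respiratory factor 1, Ndufa11 was called in no comparison on either of its probes. On its brighter probe IMQ differed from mock by -0.16, vanillin from IMQ by -0.10 and vanillin from mock by -0.27, the last with an adjusted p of 0.0523.

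Complex II is succinate dehydrogenase, which also works in the tricarboxylic acid cycle. With IMQ it had 2 of 4 probes called lower and the other 2 not called, with a median of -0.33. Its 50% called compares with 53.6% of all probes, of which 29.6% were lower. The count of called probes was 1 without mock array 2 or 3 or any IMQ array. It was 4, with 1 higher and 3 lower, without mock array 1. Over all probes these fits called 43.7% to 50.7%. Sdhc, a membrane anchor, and Sdhb, the iron-sulfur subunit, were both lower with IMQ but differed in the vanillin group. Sdhc read 14.64, 14.43 and 14.29 in mock, 13.89, 13.96 and 13.96 in IMQ and 14.66, 14.51 and 14.50 in vanillin. IMQ arrays were below all others, while vanillin and mock arrays overlapped. Sdhc fell to 0.699-fold with IMQ (-0.52 ± 0.11, adjusted p = 0.00331) and was 1.54-fold higher in vanillin than in IMQ (adjusted p = 0.00322).

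Sdhb read 15.46, 15.90 and 16.03 in mock, 15.40, 15.31 and 15.40 in IMQ and 14.81, 14.87 and 15.05 in vanillin. Vanillin arrays were the lowest of the 9. Vanillin was 0.54-fold the mock level (-0.89 ± 0.15, adjusted p = 0.00227). The change with IMQ was -0.43 ± 0.15 (adjusted p = 0.0352) and that from IMQ to vanillin -0.46 ± 0.15 (adjusted p = 0.0336). The first was lost without mock array 2 or 3 or any IMQ array (adjusted p from 0.0755 to 0.114), and the second without any IMQ array or vanillin array 1 or 2 (0.0637 to 0.0986). Sdha, the flavoprotein, had changes of -0.24, -0.06 and -0.31 in the 3 comparisons, none called. Sdhd, the other anchor, was called in vanillin against mock (0.30 ± 0.09, adjusted p = 0.0395), but not without mock array 2 or 3, any IMQ array or vanillin array 1 or 2 (adjusted p from 0.0664 to 0.12).

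Complex III, the cytochrome bc1 complex, had 1 of 6 probes higher (16.7%) and 2 lower (33.3%) with IMQ, against 24% and 29.6% of all probes. Its core subunits went in opposite directions. Uqcrc1 read 13.34, 13.63 and 13.60 in mock, 14.30, 14.23 and 14.33 in IMQ and 13.75, 14.16 and 14.18 in vanillin. IMQ arrays were above all others, and vanillin arrays above all mock arrays. The rise was 1.7-fold with IMQ (0.76 ± 0.13, adjusted p = 0.0015). The vanillin level was 1.42-fold that of mock (adjusted p = 0.0221), a call lost without mock array 1 or vanillin array 2 or 3 and with only these groups in the fit (adjusted p from 0.0566 to 0.0732).

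Uqcrc2, the partner of Uqcrc1 in the matrix-facing core, read 16.13, 16.20 and 16.22 in mock, 15.54, 15.55 and 15.51 in IMQ and 15.64, 15.57 and 15.68 in vanillin. Both treated groups were below every mock array. It fell to 0.636-fold with IMQ (-0.65 ± 0.08, adjusted p = 0.00016) and was 0.681-fold the mock level with vanillin (adjusted p = 0.000831), while vanillin and IMQ differed by 0.10 (adjusted p = 0.317).

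Small subunits of complex III changed less. Uqcr10 read 16.39, 16.19 and 16.11 in mock, 16.27, 16.20 and 16.07 in vanillin and 15.88, 15.92 and 15.90 in IMQ, where all arrays were below all others. The change of -0.33 ± 0.10 (adjusted p = 0.0209) was not called without IMQ array 1 (adjusted p = 0.0704) or 3 (0.0622). Vanillin against IMQ called 1 of 6 complex III probes (16.7%, against 41.2% of all probes). It was that of Uqcrq, a ubiquinone-binding subunit, with a change of 0.36 ± 0.10 (adjusted p = 0.024). That call was lost without any IMQ array or vanillin array 1 or 2 (adjusted p from 0.0545 to 0.0913). Uqcrfs1, the Rieske iron-sulfur protein, and Uqcr11, which has the GABP motif, were called in no comparison.

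Complex IV, cytochrome c oxidase, had 6 probes higher, 6 lower and 9 not called of 21 with IMQ, with a median of 0.17, and its 57.1% called compares with 53.6% of all probes. Vanillin against IMQ gave 5 higher, 4 lower and 12 not called, and vanillin against mock 4 higher, 1 lower and 16 not called, with medians of 0.01 and 0.07. Of its probes 42.9% and 23.8% were called in these comparisons, against 41.2% and 26.7% of all probes. The 9 calls of vanillin against IMQ became 5 without IMQ array 1, where all probes fell to 26.2%.

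Ndufa4l2, a relative of the complex IV subunit Ndufa4 known to be induced in hypoxia, read 10.23, 10.65 and 10.68 in mock, 11.87, 12.03 and 11.93 in IMQ and 10.91, 10.94 and 10.75 in vanillin. All IMQ arrays were above all others. It rose 2.68-fold with IMQ (1.42 ± 0.13, adjusted p = 5.19e-05) and vanillin was 0.474-fold the IMQ level (-1.08 ± 0.13, adjusted p = 0.00125). Its difference between vanillin and mock, 0.35, was not called (adjusted p = 0.0884).

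Ndufa4 itself moved less and stayed high with vanillin. It read 16.22, 15.81 and 15.83 in mock, 16.37, 16.40 and 16.45 in IMQ and 16.60, 16.80 and 16.58 in vanillin. The groups did not overlap. The rise with IMQ was 1.37-fold (0.46 ± 0.12, adjusted p = 0.013), and vanillin stood 1.64-fold above mock (0.71 ± 0.12, adjusted p = 0.00308).

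Cox6b2, the testis form of subunit VIb, had the lowest p among complex IV probes for IMQ against mock. Its brighter probe read 10.88, 10.86 and 10.77 in mock, 9.57, 9.71 and 9.47 in IMQ and 10.30, 10.32 and 10.04 in vanillin. The groups were fully separated, with vanillin between. It fell to 0.42-fold with IMQ (-1.25 ± 0.11, adjusted p = 3.49e-05), and vanillin was 1.55-fold the IMQ level (adjusted p = 0.00318) and 0.651-fold the mock level (adjusted p = 0.00298). The other probe also fell with IMQ, by 0.57 ± 0.09 (adjusted p = 0.000761). Cox6b1, the general form, was not analysed here.

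Of the forms of heart and skeletal muscle, the probes of Cox7a1 and Cox8b and the brighter of the 2 Cox6a2 probes were called higher in vanillin than in mock. The dimmer Cox6a2 probe changed by -0.13 there (adjusted p = 0.722) and is described with the other genes whose probes differed. The brighter Cox6a2 probe read 13.53, 13.39 and 13.32 in mock, 13.14, 13.15 and 13.15 in IMQ and 14.01, 14.03 and 13.85 in vanillin. Vanillin arrays were above all others and IMQ arrays below all others. Vanillin was 1.76-fold the IMQ level (0.82 ± 0.09, adjusted p = 0.000884) and 1.46-fold the mock level (adjusted p = 0.00218). The change with IMQ, -0.27 ± 0.09 (adjusted p = 0.0325), was lost without mock array 1 or 2 or any IMQ array (adjusted p from 0.0657 to 0.0967).

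Cox7a1 read 10.20, 10.21 and 10.19 in mock, 10.63, 10.61 and 10.50 in IMQ and 10.67, 11.01 and 10.71 in vanillin. Mock arrays were below all others. It was 1.3-fold higher with IMQ (adjusted p = 0.0139, lost without IMQ array 1 at 0.0556) and 1.51-fold higher in vanillin than in mock (adjusted p = 0.00324). Cox8b read 12.73, 12.99 and 12.97 in mock, 13.14, 13.13 and 13.14 in IMQ and 13.22, 13.55 and 13.43 in vanillin, and the groups did not overlap. Only vanillin against mock was called, at 1.41-fold (0.50 ± 0.11, adjusted p = 0.0101).

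The general partners of these forms were not called in vanillin against mock. Cox6a1, which has the motif of nuclear respiratory factor 1, and Cox8a were called in no comparison. For IMQ against mock Cox6a1 was near the threshold (0.31 ± 0.12, adjusted p = 0.0519), and 2 of 9 fits without 1 array called it. The brighter probe of Cox7a2 was also not called, with a change of 0.04 for IMQ against mock (adjusted p = 0.715). Its dimmer probe was called higher with IMQ, as Cox7a1 was (1.98 ± 0.22, adjusted p = 0.000141 for the dimmer Cox7a2 probe), and is described below. The difference between a form and its partner was not tested. Cox4i1, the general form of subunit IV, fell to 0.778-fold with IMQ (-0.36 ± 0.10, adjusted p = 0.014) and was 1.3-fold higher in vanillin than in IMQ (adjusted p = 0.0176). Without IMQ array 1 neither was called (adjusted p of 0.0615 and 0.0747), and the second was also lost without vanillin array 1 (0.0515). Cox4i2, the lung form, Cox7b and the testis form Cox8c were called in no comparison. Cox7b2, also a testis form, rose by 0.75 ± 0.17 with IMQ (adjusted p = 0.00485).

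Cox7a2l, known for joining complexes III and IV into supercomplexes, came from a dim probe at percentile 18.5. It read 7.41, 7.16 and 7.48 in mock, 6.07, 6.43 and 6.09 in IMQ and 6.88, 7.18 and 6.54 in vanillin. IMQ arrays were below all others, and vanillin overlapped mock. It fell to 0.451-fold with IMQ (-1.15 ± 0.18, adjusted p = 0.000695). Vanillin was 1.59-fold the IMQ level (adjusted p = 0.0168), a call lost without IMQ array 1 (0.063) or 3 (0.0634) or vanillin array 2 (0.0513).

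**Figure D3:**
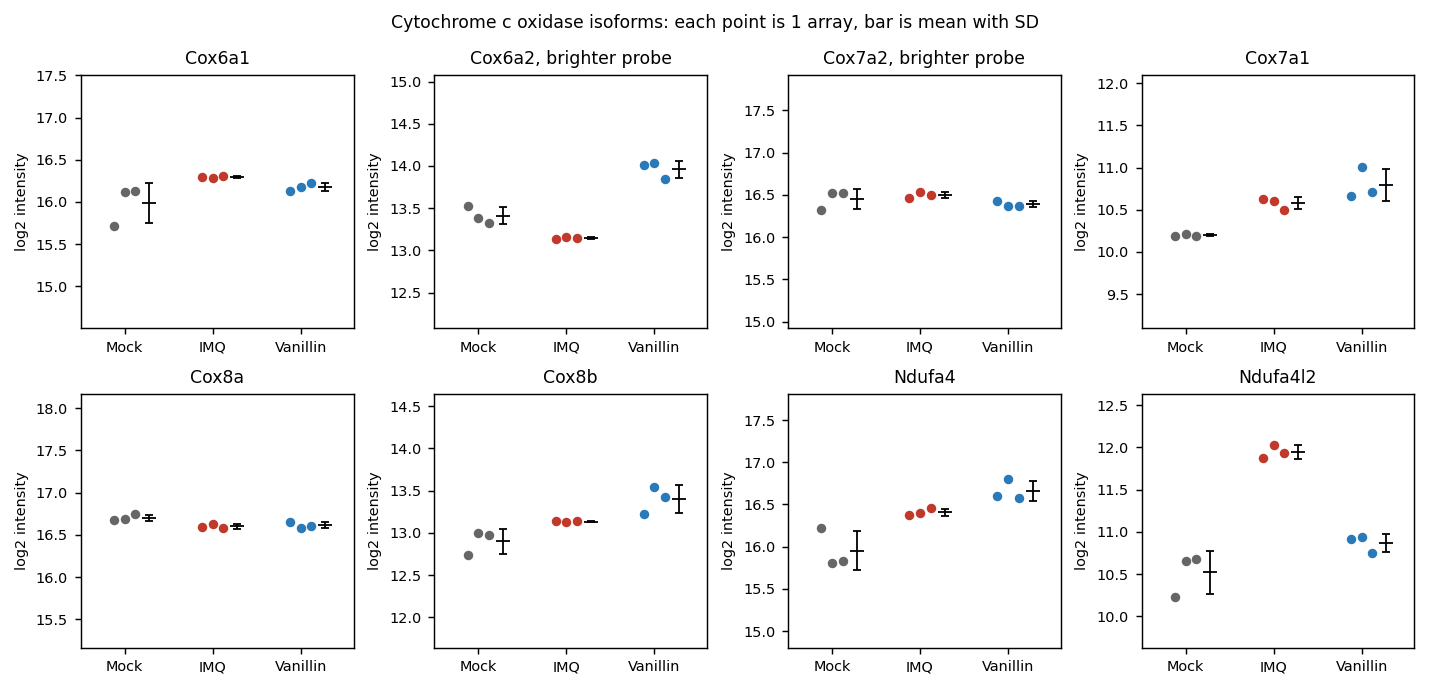
Log2 intensity (vertical axis, each panel spanning 3 units) on each array of the 3 groups for 8 complex IV probes: 4 tissue-restricted forms or relatives beside their general partners. Points are arrays and bars are the mean with SD of 3 arrays. Ndufa4l2 is high on the 3 IMQ arrays, at 11.87 to 12.03, while the brighter Cox6a2 probe is highest on the vanillin arrays, at 13.85 to 14.03.

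Complex V, ATP synthase, had 4 probes higher, 2 lower and 6 not called of 12 with IMQ, 50% against 53.6% of all probes. Between vanillin and IMQ 3 were higher, 3 lower and 6 not called, 50% against 41.2% of all probes. Without IMQ array 1 those 6 calls became 2, where all probes fell to 26.2%. Between vanillin and mock limma called 0 of 12, against 26.7% of all probes, with 1 at an unadjusted p under 0.05. It called 1 without mock array 1 or 3 or vanillin array 3. The difference of complex V from the array was not tested.

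Atp5f1, the b subunit of the peripheral stalk, whose current name is Atp5pb, read 8.48, 8.48 and 8.52 in mock, 7.49, 7.70 and 7.24 in IMQ and 8.41, 8.26 and 8.40 in vanillin. IMQ arrays were below all others. It fell to 0.493-fold with IMQ (-1.02 ± 0.12, adjusted p = 0.000167), and vanillin was 1.84-fold the IMQ level (0.88 ± 0.12, adjusted p = 0.00159).

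Atp5k, the e subunit, which helps ATP synthase form dimers, went the opposite way. It read 13.54, 14.20 and 14.32 in mock, 15.15, 15.14 and 15.21 in IMQ and 14.28, 14.07 and 14.28 in vanillin. IMQ arrays were above all others, and vanillin lay within the range of mock. It rose 2.21-fold with IMQ (1.14 ± 0.18, adjusted p = 0.00093), and vanillin was 0.517-fold the IMQ level (adjusted p = 0.0051). Of the 4 genes whose promoter window held the motif of nuclear respiratory factor 1, printed above, Atp5k alone was called for IMQ against mock.

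Atp5c1, the gamma subunit of the rotating stalk, read 9.22, 9.30 and 9.22 in mock, 9.93, 9.69 and 9.84 in IMQ and 9.15, 9.13 and 9.57 in vanillin. IMQ arrays were above all others. It rose 1.48-fold with IMQ (adjusted p = 0.00577), and vanillin was 0.689-fold the IMQ level (adjusted p = 0.0122), a call lost without IMQ array 1 (0.0521). Atp5b, the catalytic beta subunit, Atp5e and Atp5g3, a c-ring gene with the receptor motif, were called in no comparison.

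Factors that carry the same prefixes had 2 probes higher (20%) and 3 lower (30%) of 10 with IMQ, against 24% and 29.6% of all probes. Between vanillin and IMQ 3 were higher and 1 lower, 40% against 41.2% of all probes. That count of 4 became 2 without IMQ array 3, where all probes fell to 24.9%. Ndufaf3, a complex I assembly factor, read 12.90, 12.98 and 12.83 in mock, 12.38, 12.35 and 12.29 in IMQ and 12.68, 12.60 and 12.78 in vanillin. The groups did not overlap. It fell to 0.676-fold with IMQ (-0.56 ± 0.09, adjusted p = 0.000676). Ndufaf2, another complex I assembly factor, rose 1.38-fold (0.47 ± 0.13, adjusted p = 0.0126). Ndufaf4, with the motif of nuclear respiratory factor 1, was not called in any comparison.

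Probes of some member genes gave different calls. How often this happens among all genes with several probes on the array was not examined here. Of the 9 genes with several probes, Cox6a2 and Sdhaf2 were called in opposite directions on different probes for IMQ against mock. Another 5 were called on some probes but not all. Both probes of Cox6b2 were called lower, and neither probe of Ndufa11 was called. The dimmer Cox6a2 probe read 9.57, 9.71 and 9.66 in mock, 10.42, 10.54 and 10.55 in IMQ and 9.84, 9.82 and 8.89 in vanillin. Its IMQ arrays were above all others, where those of the brighter probe were the lowest. The rise was 1.81-fold (0.86 ± 0.23, adjusted p = 0.0115), and vanillin was 0.505-fold the IMQ level (adjusted p = 0.0099), so no direction is given here for Cox6a2 as a gene.

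Sdhaf2, which helps attach the flavin to Sdha, split in the same way. Its brighter probe read 11.65, 11.52 and 11.42 in mock, 10.64, 10.67 and 10.49 in IMQ and 11.15, 11.31 and 10.99 in vanillin, a fall to 0.523-fold with IMQ (adjusted p = 0.000173). The dimmer probe read 8.12, 8.14 and 8.16 in mock, 8.99, 8.74 and 8.99 in IMQ and 8.55, 8.39 and 8.99 in vanillin, a rise of 1.7-fold (adjusted p = 0.00267). Neither set of mock and IMQ arrays overlapped. For vanillin against IMQ the opposite calls were those of Cox6a2 and Atp5s, the latter a factor related to ATP synthase with the current name Dmac2l. The dimmer Atp5s probe was 1.78-fold higher in vanillin than in IMQ (adjusted p = 0.00163), after a fall to 0.534-fold with IMQ (adjusted p = 0.000247). The brighter changed by -0.24 between vanillin and IMQ (adjusted p = 0.048), a call lost without any single array other than mock array 1, with adjusted p from 0.0583 to 0.176.

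In other genes 1 probe alone carried a large change. The dimmer probe of Cox7a2, the general form of subunit VIIa, read 10.69, 10.97 and 10.69 in mock, 12.80, 12.49 and 13.01 in IMQ and 11.04, 11.04 and 11.82 in vanillin. Its rise of 3.96-fold with IMQ (1.98 ± 0.22, adjusted p = 0.000141) was the largest change of any member in that comparison, while the brighter probe was not called. The dimmer probe of Ndufs4, an accessory subunit of the peripheral arm of complex I, read 11.36, 12.43 and 12.50 in mock, 13.75, 13.68 and 13.74 in IMQ and 12.31, 12.55 and 12.50 in vanillin. It rose 3.09-fold with IMQ (1.63 ± 0.27, adjusted p = 0.000976), with mock array 1 apart from the other mock arrays, and the brighter probe changed by -0.12 (adjusted p = 0.208).

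Atp5g1, which encodes the c subunit of the membrane ring, gave the same picture at low signal. Its dimmer probe, at percentile 16.7, read 6.27, 6.42 and 6.24 in mock, 7.27, 7.24 and 7.19 in IMQ and 6.33, 6.04 and 6.97 in vanillin. IMQ arrays were above all others. It rose 1.89-fold with IMQ (0.92 ± 0.20, adjusted p = 0.00463), and its brighter probe was not called (-0.10). The probes' own sequences were not used here, so which transcript or exon each one reads is not given.

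**Figure D4:**
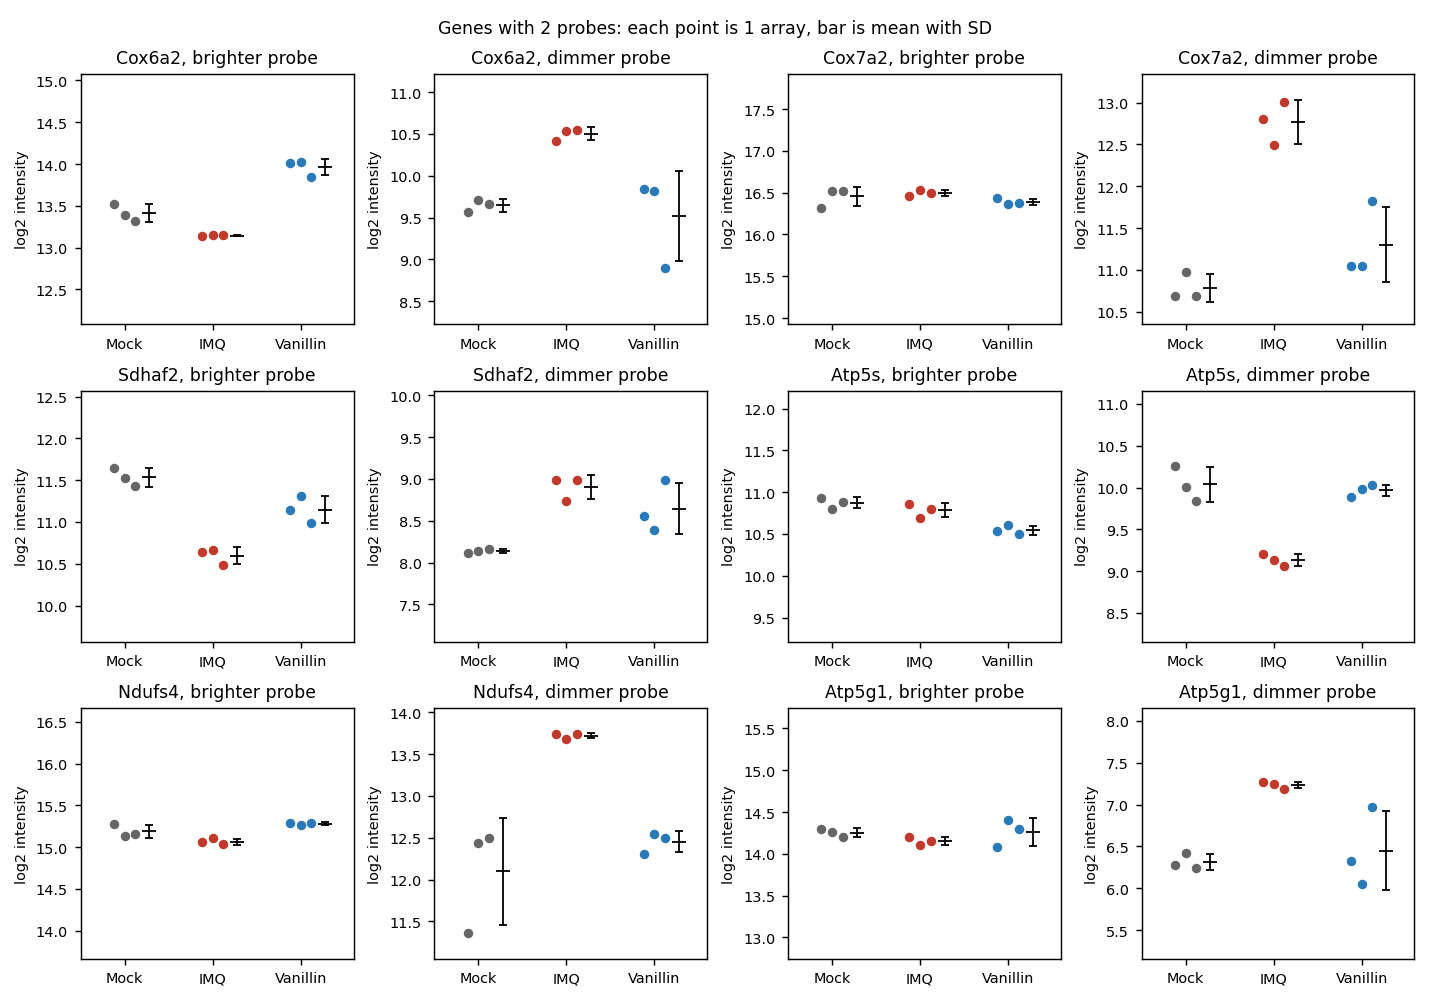
Log2 intensity (vertical axis, each panel spanning 3 units) on each array for both probes of 6 genes, the brighter beside the dimmer. Points are arrays and bars are the mean with SD of 3 arrays. For Cox6a2 and Sdhaf2 the IMQ arrays lie on opposite sides of mock on the 2 probes, and for Cox7a2, Ndufs4 and Atp5g1 only the dimmer probe has IMQ arrays far above mock.

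The brightest members changed by small amounts. Of the 48 members at or above the 90th percentile of intensity 8 were called higher and 15 lower with IMQ, which is 47.9%, against 56.8% of all probes that bright. Their median size of change was 0.24 log2 units, against 0.35 for all such probes. By at least 1 unit changed 2 of the 48 (4.17%), against 9.88% of all such probes. Between the 50th and 90th percentiles 65.4% of 26 members and 61.9% of all probes were called. There 5 members (19.2%) changed by at least 1 unit, against 15.8% of all probes. Below the 50th percentile the shares were 46.7% of 15 members and 46.3% of all probes. These differences between members and other probes were not tested.

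Other mitochondrial genes were described by the same counts. The list for the tricarboxylic acid cycle, which feeds NADH and succinate to the chain, also held the pyruvate dehydrogenase subunits Pdha1, Pdhb and Dlat. It had 2 of 17 probes higher (11.8%) and 9 lower (52.9%) with IMQ, with a median of -0.30. All probes had 24% and 29.6%, with a median of -0.04. Dlat, a subunit of pyruvate dehydrogenase, changed by -0.82 ± 0.08 (adjusted p = 5.76e-05). Idh3a, of isocitrate dehydrogenase, changed by -1.07 ± 0.11 on the probe with the smaller p (adjusted p = 9.6e-05), and Pdha1 by -0.78 ± 0.14 (adjusted p = 0.00173). Vanillin against IMQ gave 6 higher (35.3%) and 2 lower (11.8%) in this list, with a median of 0.22, against 24.3% and 17% of all probes. These differences from the array were not tested. Dlat was 0.60 ± 0.08 and Pdha1 0.68 ± 0.14 higher in vanillin than in IMQ.

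Assembly factors outside the prefix rule had 7 of 30 probes higher (23.3%) and 9 lower (30.0%) with IMQ, close to the 24% and 29.6% of all probes. Both probes of Foxred1, a complex I assembly factor, were called lower, with changes of -1.51 ± 0.13 and -1.38 ± 0.11. Surf1, needed to assemble complex IV, changed by -1.13 ± 0.10 (adjusted p = 4.38e-05). Uqcc3, a complex III assembly factor, rose by 1.43 ± 0.19 on its dimmer probe, while its brighter probe changed by -0.04 (adjusted p = 0.725). A list of electron carriers, enzymes of ubiquinone synthesis and further subunits had 1 of 12 probes higher (8.33%) and 6 lower (50%). All probes had 24% and 29.6%. Most probes of this list were for Coq enzymes of ubiquinone synthesis, and cytochrome c and cytochrome c1 were not in it. Coq3, an enzyme of ubiquinone synthesis, rose by 1.71 ± 0.13 (adjusted p = 2.16e-05), while Coq4, of the same pathway, fell by 0.91 ± 0.09. Etfa, of the electron transfer flavoprotein, was called lower on both probes, with a change of -0.79 ± 0.09 on the dimmer one.

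Regulators of mitochondrial biogenesis and mitochondrial DNA had 5 of 22 probes higher (22.7%) and 9 lower (40.9%) with IMQ, against 24% and 29.6% of all probes. Gabpa, the DNA-binding subunit of the factor whose motif was searched, fell by 1.10 ± 0.11 (adjusted p = 8.25e-05). Ssbp1, the mitochondrial single-strand DNA-binding protein, rose by 1.67 ± 0.19, and 1 probe of the helicase Twnk fell by 0.92 ± 0.11 while its other probe did not pass (0.01, adjusted p = 0.955). Proteins of the mitochondrial ribosome, which makes the subunits encoded in mitochondrial DNA, had 12 of 79 probes higher (15.2%) and 26 lower (32.9%), with a median of -0.13, so 48.1% were called against 53.6% of all probes. With vanillin against IMQ they had 26 higher (32.9%) and 10 lower (12.7%), with a median of 0.16, against 24.3% and 17% of all probes. The 36 calls became 19, 22 and 17 without IMQ array 1, 2 or 3 and 22 and 23 without vanillin array 1 or 2. The share of all probes fell in the same fits, from 41.2% to between 24.9% and 32.2%. Mrps17 rose by 1.25 ± 0.11 with IMQ (adjusted p = 3.54e-05), Mrpl45 fell by 1.18 ± 0.13, and a dim probe of Mrpl11 rose by 1.93 ± 0.19 where its brighter probe changed by -0.07 (adjusted p = 0.605).

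**Figure D5:**
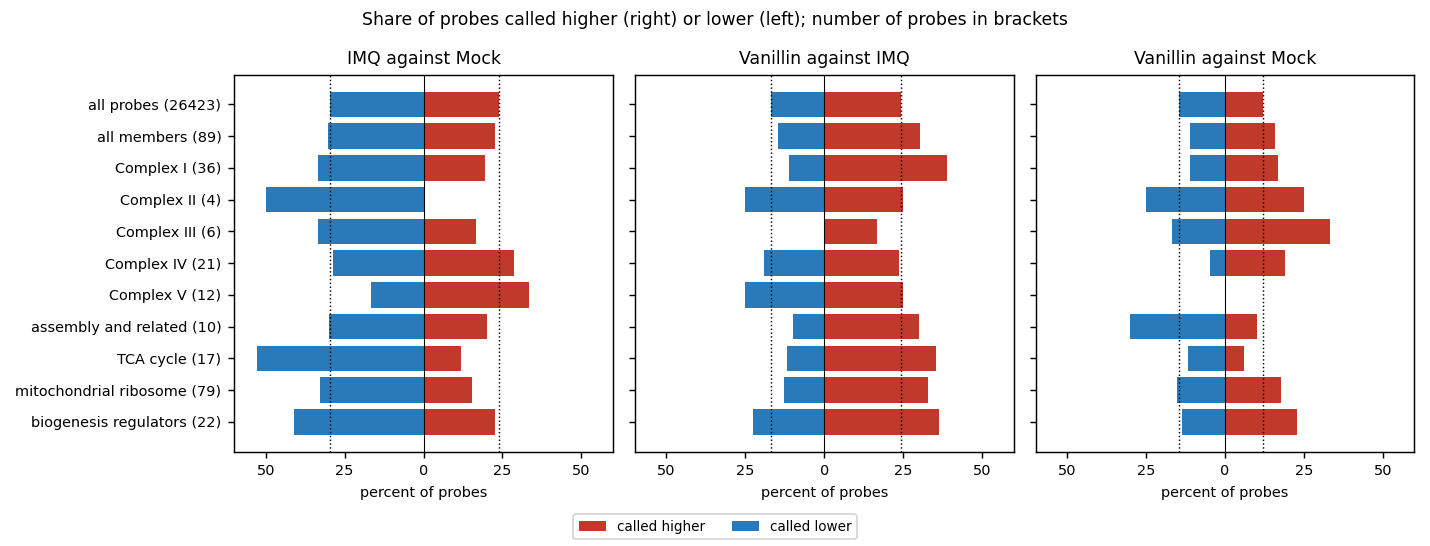
Percent of probes called higher (to the right of 0) and lower (to the left) in each comparison for the member classes and 3 other mitochondrial lists, with the number of probes in brackets. Dotted lines repeat the shares of all 26423 probes. The bars of all 89 members lie near those lines in IMQ against mock, at 22.5% and 30.3%, while the complexes with few probes scatter around them.

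Markers of several cell types moved across the same groups. Of the 11 skeletal muscle probes 0 were called higher and 5 lower (45.5%) by limma for IMQ against mock, where 29.6% of all probes were lower. For vanillin against IMQ 9 were higher (81.8%) and 0 lower, where 24.3% of all probes were higher. At an unadjusted p under 0.05 these were 0 and 6, and 9 and 0. Their median changes were -0.37 and 0.48, and 3 were higher and 1 lower for vanillin against mock. Their summed intensity ran from 445216 to 483726 on mock arrays, 374400 to 378976 on IMQ arrays and 476034 to 496277 on vanillin arrays, and none of the list was at 0. Ckm, muscle creatine kinase, changed by -0.64 ± 0.08 with IMQ (adjusted p = 0.000231), while Mb, myoglobin, changed by 0.03 on its brighter probe (adjusted p = 0.758). The part of muscle in the values of Cox6a2, Cox7a1, Cox8b and the complexes was not tested.

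Of the 12 adipocyte probes limma called 0 higher and 9 lower (75%) with IMQ, the same counts as at an unadjusted p under 0.05, where 29.6% of all probes were lower. For vanillin against IMQ 8 were higher (66.7%) and 1 lower, where 24.3% of all probes were higher. Their summed intensity ran from 376537 to 398296 on mock arrays, 254091 to 257439 on IMQ arrays and 281636 to 295419 on vanillin arrays. The 13 keratinocyte probes were mixed with IMQ, with 5 called higher, 2 lower and 6 not called and a median change of 0.18. Their sum ran from 1207236 to 1281610 in mock, 1614765 to 1657204 in IMQ and 1635658 to 1713303 in vanillin. Krt1, a keratin of the upper epidermis, rose by 3.43 ± 0.12 with IMQ, while Krt15, a keratin of the basal layer, fell by 0.38 ± 0.10. Of the 6 neutrophil probes 2 were called higher with IMQ, S100a9 by 5.54 ± 0.09 and Cxcr2 by 2.18 ± 0.14, and the other 4 were not called, with a median change of 0.15 over the list. The neutrophil sum, which ran from 4062 to 4314 in mock, 122213 to 126584 in IMQ and 106915 to 119023 in vanillin, thus moved with few probes. Of the 5 brown fat probes, which include that of Cox8b, 1 was called higher with IMQ (20%) and 0 lower. For vanillin against IMQ 2 were higher (40%) and 0 lower, and for vanillin against mock 3 (60%) and 0. Over all probes 24%, 24.3% and 11.9% were called higher in these comparisons. Within this list Ucp1 was dim, at percentile 17.5, and was called in no comparison. Marker lists not described above also had calls with IMQ. Lower were 5 of 6 endothelial, 5 of 7 fibroblast, 4 of 7 hair follicle and 3 of 5 proliferation probes. Of these lists only that of fibroblasts had higher calls, with 2. Sebaceous gland and macrophage lists, of 6 and 5 probes, each had 2 higher and 2 lower. T cell probes had 3 of 6 higher and 0 lower. Over all probes 24% were higher and 29.6% lower. The part of these cell types in the members' changes was not tested.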

How the data were processed

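Total RNA was labelled with Cy5, per the labels' protocols, and hybridised to 9 one-colour arrays. The deposited table holds linear intensity values for 26423 probes. The submitters' processing notes name limma without a version. The background correction and the scaling were not stated in the sources used, but the deposited columns have nearly equal distributions, so a change of total signal cannot be seen. Intensities under 1 were set to 1 and log2 was taken, with no further scaling or filter. limma 3.58.1 in R 4.3.3 was fitted with 1 mean per group over all 9 arrays, and p-values were adjusted by Benjamini-Hochberg over all probes of each comparison. A call is an adjusted p under 0.05. Fold changes are 2 to the power of the log2 change. Errors of changes are the moderated standard errors of the fit.

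Gene symbols came from the platform annotation, with 1 symbol for 20377 probes and none for 6046. Of the members' symbols 85 were current and 4 were synonyms in the RefSeq gene table. Members, gene lists and tests were chosen with earlier results of these data known. Named members were, per complex, up to 4 called probes of smallest p for IMQ against mock and up to 3 for vanillin against IMQ, the tissue-restricted complex IV forms with their partners, and genes whose probes were called in opposite directions. Members outside this rule that are named for a promoter motif or to complete a complex (Ndufa11, Sdha, Sdhd, Uqcrfs1, Uqcr11, Atp5b, Atp5e, Atp5g3, Ndufaf4), and the markers Ckm, Mb, Ucp1, Krt1, Krt15, S100a9 and Cxcr2, were chosen after their values were seen. From each other list up to 3 genes were named. The procedure was tested on simulated data for IMQ against mock. It recovered 21 of 100 changes of 0.5 log2 units and 64 of 100 of 1 unit, with 0 of the wrong sign. It also called 3 unchanged probes. The simulation changed far fewer probes than were called in the data, so these shares may differ there. Alternatives changed scaling, offset, dim probe filter, spread prior, array weights, arrays in the fit, replicate block, threshold, unit tested and choice of members, and left out each array in turn.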

Additional observations from a re-analysis of the deposited data

How the results depend on the processing

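With all arrays 47 members were called in IMQ against mock, 40 in vanillin against IMQ and 24 in vanillin against mock. At an adjusted p under 0.01 these were 30, 14 and 12. Array weights raised the counts of the latter comparisons to 61 and 37. A fit of only the vanillin and mock arrays gave 14. Leaving out 1 array gave 34 to 49, 16 to 46 and 16 to 27. No pairing by replicate number was seen. Correlations of deviations from group means ran from -0.265 to 0.222 for same-numbered arrays and from -0.18 to 0.261 for the others. These few arrays cannot exclude a small effect shared by a number. With the replicate block 43, 32 and 20 members were called, and 51.5%, 37.7% and 23.6% of all probes. Quantile normalization, median centring, the offset of 16, the dim probe filter, the trended prior, gene means and updated symbols kept each count within 1.5 times. Updated symbols gave 53, 45 and 23 of 96 probes, with the shares of all probes unchanged. Of 70 calls of named members 48 were kept in all 17 settings and none reversed. Of 1980 recomputed values of named members 95 lost a call and 34 gained one, and 15 of 306 class medians moved by more than the spread between replicates. The causes were not tested. The number of arrays and the low signal of 5 members limit what can be seen.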

Other observations

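Complex I members not named in the results moved in both directions. Ndufa8, Ndufa10 and 1 of 3 Ndufv3 probes were called lower than mock in both the IMQ and the vanillin group, and Ndufa1, Ndufb2 and Ndufs1 higher in both. These were chosen after their values were seen, so they are a description. Ndufa8, a subunit of the membrane arm that faces the intermembrane space, read 14.49, 14.58 and 14.61 in mock, 14.07, 14.02 and 14.06 in IMQ and 13.81, 13.82 and 13.97 in vanillin. It fell to 0.704-fold with IMQ (adjusted p = 0.000956 in limma) and stood at 0.619-fold of mock in vanillin (adjusted p = 0.000383). Ndufa10, an accessory subunit of the membrane arm, read 15.58, 15.93 and 15.82 in mock, 15.23, 15.25 and 15.25 in IMQ and 15.38, 15.23 and 15.31 in vanillin. It was 0.693-fold of mock with IMQ (adjusted p = 0.00262) and 0.724-fold with vanillin (adjusted p = 0.0104). Both comparisons use the same mock arrays. Vanillin and IMQ differed by -0.19 for Ndufa8 (adjusted p = 0.101, but 0.0395 without vanillin array 3) and by 0.06 for Ndufa10 (adjusted p = 0.642).

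Ndufa1, a small subunit of the membrane arm, read 14.44, 14.29 and 14.25 in mock, 14.55, 14.63 and 14.59 in IMQ and 14.91, 14.89 and 14.88 in vanillin. It was 1.48-fold of mock with vanillin (adjusted p = 0.00109) and 1.2-fold with IMQ (adjusted p = 0.0239), the latter not called without mock array 2 or 3 or any IMQ array (0.0573 to 0.0829). Ndufb2, also of the membrane arm, read 13.29, 13.18 and 13.19 in mock, 13.69, 13.83 and 13.78 in IMQ and 13.41, 13.59 and 13.59 in vanillin. It was 1.46-fold of mock with IMQ (adjusted p = 0.000982) and 1.24-fold with vanillin (adjusted p = 0.0322). The vanillin call was lost without mock array 2 or 3, any IMQ array or vanillin array 2 or 3 (0.0537 to 0.0996). Ndufs1, the largest iron-sulfur subunit, was higher by 0.21 ± 0.08 with IMQ (adjusted p = 0.0442) and by 0.27 ± 0.08 with vanillin (adjusted p = 0.0294). Its first call was lost without any single array except vanillin array 3 (0.0529 to 0.145), and its second without any except mock array 1 or vanillin array 3 (0.0551 to 0.0867). The Ndufv3 probe changed by -0.47 ± 0.09 with IMQ (adjusted p = 0.00238) and by -0.63 ± 0.09 with vanillin (adjusted p = 0.00118), and its other probes were called in neither.

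Ndufv1, the subunit that binds NADH, read 15.49, 15.21 and 15.11 in mock, 14.79, 14.76 and 14.71 in IMQ and 15.40, 15.32 and 15.17 in vanillin. Its IMQ arrays were below all others, and vanillin overlapped mock. It was 0.698-fold of mock with IMQ (adjusted p = 0.00501) and 1.46-fold higher in vanillin than in IMQ (adjusted p = 0.00713). Whether Ndufv1 differs from Ndufa8 or Ndufa10 in this respect was not tested.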
